A study of Mus musculus with 22 samples.

Results

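The nuclear factor I (NFI) genes of the mouse, Nfia, Nfib, Nfic and Nfix, were followed across 3 brain tissues for 5-methylcytosine (5mC) and 5-hydroxymethylcytosine (5hmC). The members were the 4 genes by name, placed at their spans in GENCODE vM21 on mm10. Every 100 kb bin of 5mC and every 1 Mb bin of 5hmC that overlapped a span was taken, which gave 16 of 25664 bins for 5mC and 5 of 2581 bins for 5hmC, and all of them had values in every library. Whole cerebral cortex without the hippocampus, whole olfactory bulb and whole cerebellum came from female C57BL/6 mice 8 weeks old, with no treatment, and per the study's methods the replicates came from separate mice. Oxidative bisulfite sequencing (oxBS-seq), which reads 5mC alone, was done on 3 cortex, 2 olfactory bulb and 2 cerebellum libraries, and Tet-assisted bisulfite sequencing (TAB-seq), which reads 5hmC alone, on 3 libraries of each tissue. A level is the fraction of modified cytosine in a bin, from 0 to 1.

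NFI proteins are transcription factors that bind DNA as dimers, each partner of the dimer reading one arm of a palindrome. Nfia, Nfib and Nfix act in the developing brain, where they promote the step from neural progenitor to glial cell in the cortex and the maturation of granule neurons in the cerebellum. Nfic is best known from tooth root formation and is also present in brain. 5mC at CpG sites is made by DNA methyltransferases, and 5hmC is made from it by TET oxygenases. In adult neurons 5hmC is abundant in the bodies of active genes.

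Nfia spans chr4:97772734-98118874 on the plus strand and 5 of the 100 kb bins. Nfib spans chr4:82290173-82705750 on the minus strand and 6 bins. Nfic is at chr10:81396186-81455635 and Nfix at chr8:84699876-84800344, both on the minus strand, with 2 and 3 bins. The bins hold neighbours too. Of the 3 Nfix bins, the middle one is filled by the gene, and the outer ones hold 0.125 and 0.344 kb of it beside parts of Cacna1a, Nacc1, Calr and others. The 2 Nfic bins also overlap 12 and 3 other protein-coding genes, whereas the Nfia and Nfib bins hold no other protein-coding gene except E130114P18Rik and Zdhhc21 at the 2 gene start bins.

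The level of the whole genome differed between the tissues, and each result below is to be read against it. Mean 5mC over all bins reached 0.731 ± 0.0114 (SD, n = 2) for cerebellum, 0.707 ± 0.00286 (n = 2) for olfactory bulb and 0.677 ± 0.0147 (n = 3) for cortex. Mean 5hmC ran the other way, from 0.163 ± 0.00946 in cortex and 0.145 ± 0.00431 in olfactory bulb to 0.0949 ± 0.00176 in cerebellum (n = 3 each). Cortex oxBS-seq replicate 3 stood below the other 2 cortex libraries, at 0.660 against 0.684 and 0.687. The study states an average genome coverage per tissue, but the depth behind each bin is unknown, since the tables hold fractions only, and RNA was not analysed here, so the tissue labels could not be checked against marker transcripts. In whole tissue, a lower level in every cell and fewer cells that carry the mark cannot be told apart.

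The palindrome that NFI dimers read, TTGGC and GCCAA around 5 free bases, was searched on the GRCm38 sequence of the bins, and its matches are shown because the family is defined by this binding. It was present 6 times in 5 of the 16 member bins, while 5.90% of all 25664 bins held at least 1 match. The 6 matches follow on the plus strand, with the fixed arms in capitals and the spacer in lower case.
Nfia, chr4:97776506-97776520: TTGGCaatgtGCCAA
Nfia, chr4:97869259-97869273: TTGGCcagagGCCAA
Nfia, chr4:97876121-97876135: TTGGCaggtgGCCAA
Nfib, chr4:82379280-82379294: TTGGCttggtGCCAA
Nfic bin, outside the gene, chr10:81382146-81382160: TTGGCagcatGCCAA
Nfix bin, outside the gene, chr8:84605871-84605885: TTGGCttttaGCCAA
A match reads the same from both strands and is a description of the sequence, not a bound site. The matches of Nfia and Nfib lie within the genes, those of Nfia in its first 2 bins. The matches in the bins of Nfic and Nfix lie outside these genes, in bins that hold 3.81 and 0.125 kb of them beside other genes, and the middle bin of Nfix, described next, has none. The median number of single arms per bin was 184 in the member bins and 163 over all bins.

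5mC of all 4 NFI genes was highest in olfactory bulb, and for none of them highest in cerebellum, the tissue with the highest 5mC over all bins. The mean over the bins of Nfix was 0.376, 0.365 and 0.378 in the cortex libraries, 0.448 and 0.454 in olfactory bulb and 0.351 and 0.328 in cerebellum. These 3 groups did not overlap. Nfia, with levels of 0.560, 0.579 and 0.533 in cortex, 0.650 and 0.648 in olfactory bulb and 0.584 and 0.547 in cerebellum, set olfactory bulb apart, while its cortex and cerebellum libraries overlapped. Nfib had 0.584, 0.596 and 0.551 in cortex, 0.642 and 0.622 in olfactory bulb and 0.576 and 0.571 in cerebellum, the same arrangement as Nfia. Nfic, with levels of 0.362, 0.377 and 0.377 in cortex, 0.431 and 0.399 in olfactory bulb and 0.354 and 0.356 in cerebellum, had its lowest values in cerebellum. The order was thus olfactory bulb, cortex, cerebellum for Nfib, Nfic and Nfix and olfactory bulb, cerebellum, cortex for Nfia, with cortex and cerebellum not apart beyond their spread for Nfia and Nfib. For Nfic cerebellum was below cortex only in the bin that holds 3.81 kb of the gene (0.381 against 0.420). In the bin with its start the 2 tissues overlapped, at 0.329 and 0.324. Exact permutation tests over libraries cannot go below p = 0.1 for 3 against 2, and 2 against 2 cannot reach even that, so the tests come from a fit across all genes or bins.

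**Figure D1:**
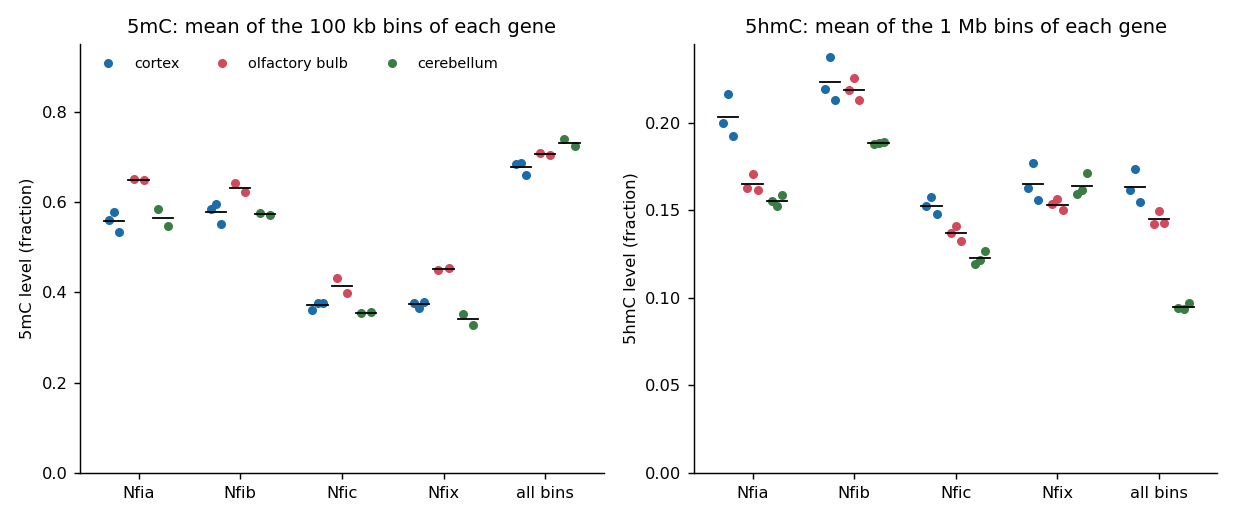
Left, 5mC level (fraction) of each NFI gene as the mean of its 100 kb bins, and right, 5hmC level (fraction) as the mean of its 1 Mb bins, with 1 point per library, a bar at the tissue mean, and the mean of all bins at the far right of each panel. In 5mC the olfactory bulb points lie above both other tissues for each NFI gene, while over all bins the cerebellum points lie highest. In 5hmC the cerebellum points of Nfix, 0.159 to 0.171, sit among those of the other tissues.

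The tests used limma on the log2 odds of a level, log2(level/(1 − level)), over 21691 protein-coding genes with Benjamini-Hochberg adjustment. Against cortex, olfactory bulb was higher in Nfia by 0.0917 in level (log2 odds 0.55, SE 0.115, adjusted p = 0.000386), in Nfix by 0.0780 (0.47, SE 0.113, adjusted p = 0.00211) and in Nfib by 0.0547 (0.33, SE 0.114, adjusted p = 0.0271). The difference of Nfic, 0.0432, did not pass (adjusted p = 0.0724). These 3 of 4 calls stand against 26.4% of all genes called higher and 0.867% called lower. Between cerebellum and cortex none of the 4 genes was called, with differences from -0.0333 in Nfix to 0.00818 in Nfia, where 55.1% of genes were called higher and 4.27% lower. At an unadjusted p under 0.05 the count was also 0, the lowest being 0.0668 in Nfix. Against olfactory bulb, cerebellum was lower in all 4, with differences of -0.111 in Nfix (log2 odds -0.68, SE 0.124, adjusted p = 2.05e-05), -0.0835 in Nfia (adjusted p = 0.00163), -0.0600 in Nfic (adjusted p = 0.0224) and -0.0586 in Nfib (adjusted p = 0.0289). In that comparison 18.0% of genes were higher in cerebellum and 7.69% were lower. These gene values are unweighted means of bins, and 2 of the 3 Nfix bins barely touch the gene. The absence of a call for Nfix between cerebellum and cortex rests on this mean. In the bin that Nfix fills the difference was -0.112 (adjusted p = 1.90e-13 in limma over bins). The outer bins had -0.0177 and 0.0300, neither called. Weighted by bases of the gene, Nfix differed by -0.260 between cerebellum and olfactory bulb and by 0.149 between olfactory bulb and cortex, and Nfib by -0.0924 between cerebellum and olfactory bulb. The calls of Nfib and Nfic were near the threshold. Without olfactory bulb replicate 1 the counts fell to 1 of 4 between olfactory bulb and cortex and to 2 of 4 between cerebellum and olfactory bulb. The second count was also 2 without olfactory bulb replicate 2 or cerebellum replicate 1 and 1 without cerebellum replicate 2. The shares of all genes in these settings are not reported here, so these counts do not set the NFI genes apart from the genome.

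The single bins showed where the difference lay. Between olfactory bulb and cortex, all 16 member bins had a positive difference and 12 were called higher, none lower, where 37.6% of all bins were called higher and 2.18% lower. The 12 were all 5 bins of Nfia, 4 of 6 of Nfib, 1 of 2 of Nfic and 2 of 3 of Nfix. At an unadjusted p under 0.05 no bin was lower either. The median difference was 0.0575 over the member bins and 0.0307 over all bins. The count was 12 without cortex replicate 3, 5 without olfactory bulb replicate 1 and 7 without olfactory bulb replicate 2. Of all bins, 27.1%, 11.8% and 15.4% were called higher in these settings, so the calls fell over the whole genome too.

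Between cerebellum and olfactory bulb, 9 of the 16 bins were called lower in cerebellum and none higher, against 7.69% of all bins lower and 35.3% higher. They were 3 bins each of Nfia and Nfib, 2 of Nfix and 1 of Nfic. The median difference of the members was -0.0620 and that of all bins 0.0248, so the NFI genes and the genome ran in opposite directions here. Without cortex replicate 3 the count was 10, and without olfactory bulb replicate 1 it was 5. The shares of all bins in these settings are not reported here, so a change over the whole genome cannot be told apart from one of the NFI bins.

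Between cerebellum and cortex the calls of the member bins went both ways. Of the 16 bins, 3 were called higher in cerebellum, 4 lower and 9 neither, where 71.9% of all bins were called higher and 4.44% lower. The median difference was -0.00380 for the members and 0.0585 for all bins. The 4 lower bins were 1 of Nfia, 2 of Nfib and the middle one of Nfix, and each lies wholly within its gene. The 3 higher ones were the last bin of Nfia and 2 bins of Nfib. That of Nfia holds 18.9 kb of the gene, and those of Nfib hold 9.83 and 100 kb. Without cerebellum replicate 2 there were 5 calls, where 70.2% of all bins were called higher and 2.17% lower. Without cortex replicate 3 there were 3 higher and 4 lower as before, where 67.3% of all bins were called higher and 6.10% lower.

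**Figure D2:**
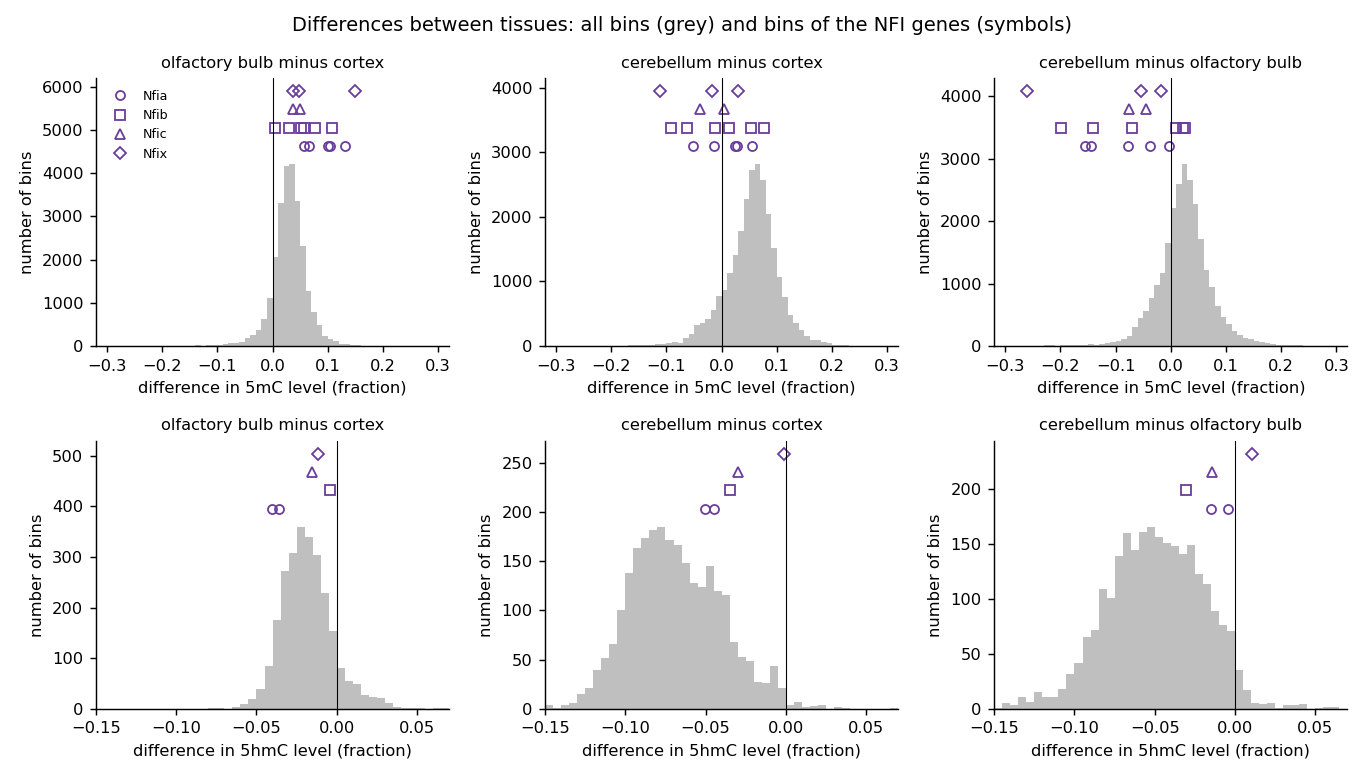
Distribution of the difference in level (fraction) between tissues over all bins (grey bars, number of bins), for 5mC in 100 kb bins (top) and 5hmC in 1 Mb bins (bottom), with the bins of the 4 NFI genes as symbols at arbitrary heights above the bars. In 5mC the NFI bins lie right of zero between olfactory bulb and cortex and mostly left of zero, in the lower tail, between cerebellum and olfactory bulb. In 5hmC they lie toward the upper end of the bars in both comparisons with cerebellum.

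Because the whole distribution moved, the fit was repeated with the median of each library subtracted. The shifts of the median bin were 0.22 log2 odds between olfactory bulb and cortex, 0.43 between cerebellum and cortex and 0.19 between cerebellum and olfactory bulb. Relative to them, 12 of 16 member bins were lower in cerebellum than in cortex and none higher (25.7% of all bins higher, 24.3% lower), and 11 of 16 were lower in cerebellum than in olfactory bulb and none higher (22.1% of all bins higher, 21.3% lower). Between olfactory bulb and cortex 5 of 16 were above the shift, as were 8.81% of all bins. At gene level, Nfia (-0.36), Nfib (-0.43), Nfic (-0.51) and Nfix (-0.62 log2 odds) were then each lower in cerebellum than in cortex, with adjusted p from 0.000294 to 0.00202 in limma, where 35.4% of all genes were called lower and 10.4% higher. Between olfactory bulb and cortex only Nfia was above the shift (0.33, adjusted p = 0.0175), as were 3.01% of all genes.

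The largest differences of the family lay in the bin that Nfix fills, chr8:84700001-84800000. 5mC there was 0.266, 0.299 and 0.295 in cortex, 0.450 and 0.422 in olfactory bulb and 0.169 and 0.180 in cerebellum. All 3 tissues stood apart with no overlap. Cerebellum was lower than olfactory bulb, with a difference of -0.261 (log2 odds -1.87, SE 0.129, adjusted p = 3.50e-40), and 20 of 25664 bins had a larger drop. Olfactory bulb was higher than cortex by 0.149 (0.94, SE 0.117, adjusted p = 8.47e-13), with 55 bins above it, and the difference of cerebellum from cortex was -0.112 (-0.93, adjusted p = 1.90e-13). In cerebellum 0.0156% of all bins had a lower level. The fit lends nearly the same SE to each bin, so these p-values carry the spread of the table more than that of this bin. Lyl1, a transcription factor of blood cells, and the model G430095P16Rik are in the same 100 kb and their share of the level cannot be told apart from that of Nfix. The 2 outer bins of Nfix differed less, with differences between cerebellum and olfactory bulb of -0.0542 and -0.0183.

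All 4 start windows that RefSeq gives for Nfix (250 bases before to 50 after a start) fall in that bin, while the GENCODE span begins 0.344 kb into the next. The 2 windows of Nfix with the most CpG sites, 13 and 9, and the window of Nfic, with 24, are shown from the GRCm38.p6 table, minus strand, with CpG sites in capitals, since CpG sites are where both marks were read.
Nfix, chr8:84780033-84780332: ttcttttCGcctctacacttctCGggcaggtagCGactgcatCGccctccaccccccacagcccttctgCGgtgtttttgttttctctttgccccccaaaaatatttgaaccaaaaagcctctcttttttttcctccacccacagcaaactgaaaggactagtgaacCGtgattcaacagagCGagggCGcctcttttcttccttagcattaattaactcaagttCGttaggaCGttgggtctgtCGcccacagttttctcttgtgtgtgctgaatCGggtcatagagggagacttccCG
Nfix, chr8:84773361-84773660: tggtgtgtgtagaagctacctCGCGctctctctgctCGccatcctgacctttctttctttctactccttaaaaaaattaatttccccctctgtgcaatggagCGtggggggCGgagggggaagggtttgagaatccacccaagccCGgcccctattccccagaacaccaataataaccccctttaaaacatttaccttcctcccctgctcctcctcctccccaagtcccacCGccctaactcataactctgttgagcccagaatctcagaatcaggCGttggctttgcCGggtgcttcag
Nfic, chr10:81427124-81427423: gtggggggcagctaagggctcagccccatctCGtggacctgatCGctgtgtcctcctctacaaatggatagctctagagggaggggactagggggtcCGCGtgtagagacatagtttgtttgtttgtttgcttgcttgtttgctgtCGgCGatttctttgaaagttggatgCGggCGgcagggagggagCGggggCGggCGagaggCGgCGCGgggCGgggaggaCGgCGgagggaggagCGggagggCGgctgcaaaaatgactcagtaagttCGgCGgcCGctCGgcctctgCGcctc
Over 32851 RefSeq windows the median was 7 CpG sites, so the Nfic window ranked above 80.0% of them, and the other 2 Nfix windows, with 4 and 2 sites, below the median. A single arm of the NFI palindrome, on either strand, was found in 3 of the 4 Nfix windows, not in that of Nfic, and in 46.7% of all windows. RefSeq windows were matched for 3 of the 4 genes. That of Nfia lies outside its GENCODE span, and Nfib was not among them.

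In Nfib the largest differences lay within the gene body. The bin chr4:82400001-82500000 had 0.405, 0.435 and 0.376 in cortex, 0.526 and 0.500 in olfactory bulb and 0.318 and 0.309 in cerebellum, again 3 groups without overlap. Cerebellum was lower there than olfactory bulb (difference -0.199, log2 odds -1.20, SE 0.129, adjusted p = 6.39e-18) and than cortex (-0.0916, adjusted p = 3.82e-06), and olfactory bulb was higher than cortex by 0.108 (adjusted p = 4.00e-06). The next bin towards the gene start, chr4:82500001-82600000, had means of 0.425, 0.502 and 0.362 in the order cortex, olfactory bulb, cerebellum. The 2 bins nearest the start had 0.667 to 0.745 in every tissue, with no call between olfactory bulb and cortex or between cerebellum and olfactory bulb. The one of them that lies wholly within the gene was higher in cerebellum, at 0.720, than in cortex, at 0.667 (adjusted p = 0.00352). Nfib thus held both its high and low levels within the same gene.

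Nfia had its lowest level at the start and rose along the gene. Means in cortex were 0.421, 0.495, 0.534, 0.637 and 0.698 from the first bin to the last, and those of olfactory bulb were 0.522, 0.627, 0.637, 0.703 and 0.756. The difference between these tissues was largest in the second bin, chr4:97800001-97900000, where cortex had 0.500, 0.506 and 0.480 and olfactory bulb 0.614 and 0.640. It was 0.131 in level (log2 odds 0.78, SE 0.117, adjusted p = 6.78e-09), and 118 bins of the genome had a larger one. The third bin had the largest drop of Nfia in cerebellum, with -0.156 against olfactory bulb (adjusted p = 5.31e-11) and -0.0526 against cortex (adjusted p = 0.0140). In the last bin, which holds 18.9 kb of the gene, cerebellum was at 0.753 and olfactory bulb at 0.756.

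Nfic was low in all 3 tissues, and of the 4 genes it differed least between olfactory bulb and cortex. The bin with its start, chr10:81400001-81500000, had 0.332, 0.314 and 0.326 in cortex, 0.378 and 0.369 in olfactory bulb and 0.322 and 0.335 in cerebellum. Olfactory bulb was higher than cortex by 0.0495 there (log2 odds 0.32, SE 0.117, adjusted p = 0.0237), while cerebellum and cortex overlapped. The other bin, with 3.81 kb of Nfic, was lower in cerebellum than in olfactory bulb (-0.0753, adjusted p = 0.00248), and its difference between cerebellum and cortex, -0.0385, did not pass (adjusted p = 0.0647).

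**Figure D3:**
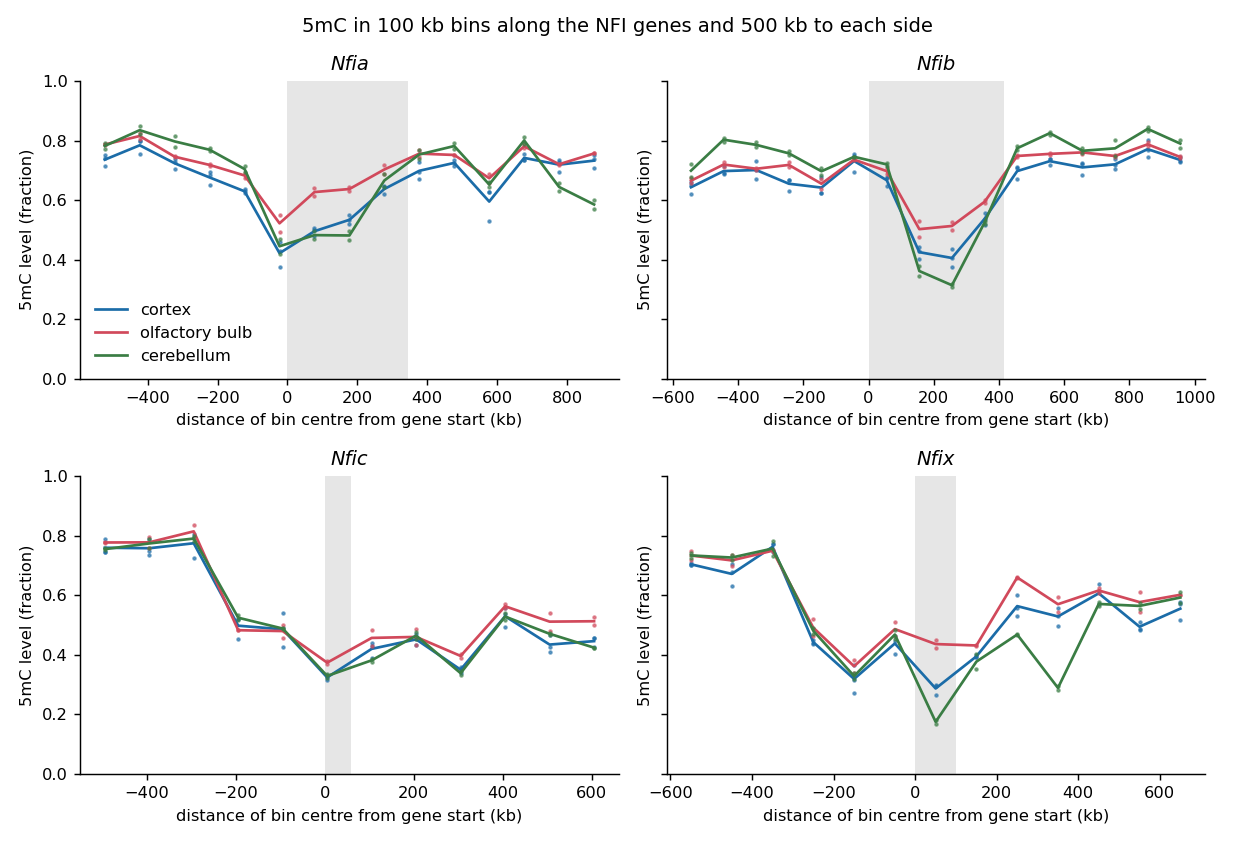
5mC level (fraction) in 100 kb bins against the distance of the bin centre from the GENCODE gene start in kb, in the direction of transcription, for each NFI gene with 500 kb to each side. Lines are tissue means, points are libraries and the grey band is the gene. The lowest bin shown lies in the gene in each panel and tissue, except for Nfix in olfactory bulb, where a flank bin upstream is lower (0.361). Single flank bins of Nfic and Nfix are also lower than some bins of these genes. In the low bins of Nfia, Nfib and Nfix the olfactory bulb line runs on top and the cerebellum line at or near the bottom.

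Each gene was on average less methylated than the 500 kb to its sides, though single flank bins of Nfic and Nfix were lower than some of their gene bins. In the order cortex, olfactory bulb, cerebellum, the gene minus flank difference in 5mC was -0.149 ± 0.0101, -0.0941 ± 0.00245 and -0.170 ± 0.00942 for Nfia (SD over libraries, n = 3, 2 and 2). For Nfib it was -0.123 ± 0.00768, -0.0940 ± 0.0140 and -0.2002 ± 0.0127, and its flanks in cerebellum, at 0.773, lay above those of cortex at 0.700. For Nfic the values were -0.177 ± 0.0259, -0.162 ± 0.00922 and -0.201 ± 0.00727, and for Nfix -0.192 ± 0.0170, -0.157 ± 0.0243 and -0.211 ± 0.00299. The dip was deepest in cerebellum and shallowest in olfactory bulb for all 4 genes by their means, and those 2 tissues did not overlap in any of them. Cortex and olfactory bulb overlapped for Nfic and Nfix, and cortex and cerebellum overlapped for Nfic.

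The downstream side of Nfix is taken up by Cacna1a, the gene of a calcium channel subunit of Purkinje and granule neurons. In the bin centred 350.3 kb from the Nfix start, within Cacna1a, mean 5mC was 0.289 for cerebellum against 0.529 for cortex and 0.570 for olfactory bulb. With flanks of 250 kb in place of 500 kb, the dip of Nfix was shallower in cerebellum, by 0.0386 against cortex and 0.0178 against olfactory bulb, the reverse of the order above. The part of the Cacna1a bins in this change was not tested.

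5hmC of the NFI genes fell less in cerebellum than that of the median bin. Over all 1 Mb bins, 97.6% were called lower in cerebellum than in cortex and 0.426% higher, and 4 of the 5 NFI bins were called lower and none higher. The exception was the Nfix bin, chr8:84000001-85000000, with 0.162, 0.177 and 0.156 in cortex, 0.153, 0.156 and 0.150 in olfactory bulb and 0.159, 0.161 and 0.171 in cerebellum. Its cortex and cerebellum libraries overlapped, with a difference of -0.00114 (log2 odds -0.01, SE 0.0732, adjusted p = 0.885), and 26 of 2581 bins had a higher difference. The fit gave each 1 Mb bin this same SE, so all 5hmC p-values carry the spread of the whole table and not that of a single bin. Against olfactory bulb it was 0.0107 higher in cerebellum, all 3 libraries above, which did not pass (adjusted p = 0.121), while 91.8% of bins were called lower and 1.20% higher. The bin also holds Cacna1a and many other genes, so the value is that of a 1 Mb region around Nfix.

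In the other NFI bins cerebellum had less 5hmC than cortex. Nfib, at chr4:82000001-83000000, had 0.219, 0.238 and 0.213 in cortex, 0.218, 0.225 and 0.213 in olfactory bulb and 0.188, 0.188 and 0.189 in cerebellum. It was above 96.8%, 96.4% and 98.0% of all bins in these tissues, and cerebellum was lower than cortex (difference -0.0350, log2 odds -0.31, SE 0.0732, adjusted p = 2.72e-05). Nfic fell by 0.0297 between cortex, at 0.152, and cerebellum, at 0.123 (adjusted p = 7.82e-07). The 2 bins of Nfia went from 0.210 and 0.195 in cortex to 0.166 and 0.145 in cerebellum. The median bin had a difference of -0.0708, and the median of the 5 NFI bins was -0.0350. With the median of each library subtracted (shifts of -0.97 log2 odds between cerebellum and cortex and -0.72 between cerebellum and olfactory bulb), all 5 bins were called higher in cerebellum in both comparisons, from 0.53 in the second Nfia bin to 1.03 in the Nfix bin against cortex, where 50.3% of all bins were called higher.

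Between olfactory bulb and cortex, 5hmC was called lower in 3 of the 5 bins, both of Nfia and that of Nfic, where 67.7% of bins were called lower and 3.25% higher. Nfia had the largest drop, with a difference of -0.0401 in the bin with its start (0.204, 0.226 and 0.202 in cortex, 0.167, 0.178 and 0.166 in olfactory bulb, adjusted p = 1.31e-06), and 157 of 2581 bins had a larger one. Nfib, with a difference of -0.00442, overlapped between the tissues. Between cerebellum and olfactory bulb, 3 of 5 bins were called lower, beside 91.8% of all bins. They were those of Nfib and Nfic and the second of Nfia, and 1 of 5 was called without olfactory bulb replicate 2 or without cerebellum replicate 1.

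In the neighbouring 1 Mb bins the fall of 5hmC depended on the gene. 5hmC of the flanks of Nfib went from 0.186 in cortex to 0.112 in cerebellum, so that the gene bin exceeded its flanks by 0.0757 ± 0.000829 there, against 0.0375 ± 0.00383 for cortex and 0.0483 ± 0.00169 for olfactory bulb. The flank bin of Nfix fell from 0.169 in cortex to 0.102 in cerebellum, and the excess of the gene bin over it was -0.00412 ± 0.00245, 0.0152 ± 0.00571 and 0.0621 ± 0.00488. The libraries of the 3 tissues overlapped in neither gene (exact permutation test, two-sided, p = 0.1 for each pair, the smallest that 3 against 3 allows). Nfic ran the other way in cerebellum. Its flank went from 0.156 in cortex to 0.133 in both other tissues, and the excess of its gene bin, -0.00322, 0.00385 and -0.00997 in the order cortex, olfactory bulb, cerebellum, was lowest in cerebellum, again with no overlap (exact permutation test, two-sided, p = 0.1 for each pair). Nfia has no flank, since its 2 bins already cover it.

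With 5mC averaged to the same 1 Mb bins, the sum of both marks for Nfix came to 0.635 ± 0.0141 (cortex), 0.679 ± 0.0120 (olfactory bulb) and 0.601 ± 0.0142 (cerebellum) (errors combined from the SDs of both assays). Nfib had 0.843 ± 0.0234, 0.887 ± 0.00948 and 0.837 ± 0.00663. Over all bins the sum was 0.840, 0.852 and 0.826. The share of 5hmC in the sum was 26.0%, 22.6% and 27.3% for Nfix and 26.5%, 24.7% and 22.5% for Nfib, in the order cortex, olfactory bulb, cerebellum. Nfia had 23.3%, 18.6% and 18.2% and Nfic 22.2%, 19.7% and 18.6%, whereas over all bins the share was 19.4%, 17.0% and 11.5%. All 4 genes thus had a larger share than the mean of all bins in each tissue, and the gap was widest in cerebellum. A larger share was not a high 5hmC level in each gene. In cortex, olfactory bulb and cerebellum the Nfic bin was above 31.7%, 37.3% and 72.1% of all bins in 5hmC. The Nfix bin was above 40.6%, 50.9% and 93.5%. The first Nfia bin was above 90.0%, 68.2% and 93.9%, and the second above 75.1%, 57.0% and 86.7%.

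The member bins were rich in CpG sites, with a median of 9.98 per kb against 7.53 over all bins. The Nfic and Nfix bins had 14.6 to 24.2 per kb, above at least 94.5% of all bins, and the bins of Nfia and Nfib 6.77 to 12.7. Bins with more CpG sites had less 5mC. In the order cortex, olfactory bulb, cerebellum, Spearman's rho was -0.78, -0.89 and -0.77 over the 16 bins and -0.62, -0.64 and -0.60 over all 25664 bins, as a description, since bins of a gene are neighbours and share libraries. The 5mC of the middle Nfix bin in cerebellum was low also for its density, with 0.175 at 19.2 CpG sites per kb, where the denser Nfic bins were at 0.329 and 0.381.

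The Meis and Pbx genes, 7 homeobox genes of which several act in olfactory bulb neurons, ran in the opposite order in 5mC. The mean over NFI genes was 0.537 ± 0.00855 for olfactory bulb, above 0.470 ± 0.00974 for cortex and 0.458 ± 0.0110 for cerebellum, and that over Meis and Pbx genes 0.497 ± 0.0131, below 0.562 ± 0.0160 and 0.602 ± 0.00408 (SD over libraries). The difference of the 2 families shifted by 0.132 between cortex and olfactory bulb (exact permutation test, two-sided, p = 0.1, the smallest possible) and by -0.183 between olfactory bulb and cerebellum (2 libraries against 2, which cannot reach p = 0.05 in that test), with no overlap of the libraries in either. Meis2, with 0.296 in olfactory bulb against 0.543 in cortex and 0.657 in cerebellum, had the largest differences of that list, and Meis3, with 0.563, 0.462 and 0.417, had the NFI order. In 5hmC the 2 families were close in olfactory bulb, while in cerebellum the NFI genes exceeded Meis and Pbx by 0.0497.

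**Figure D4:**
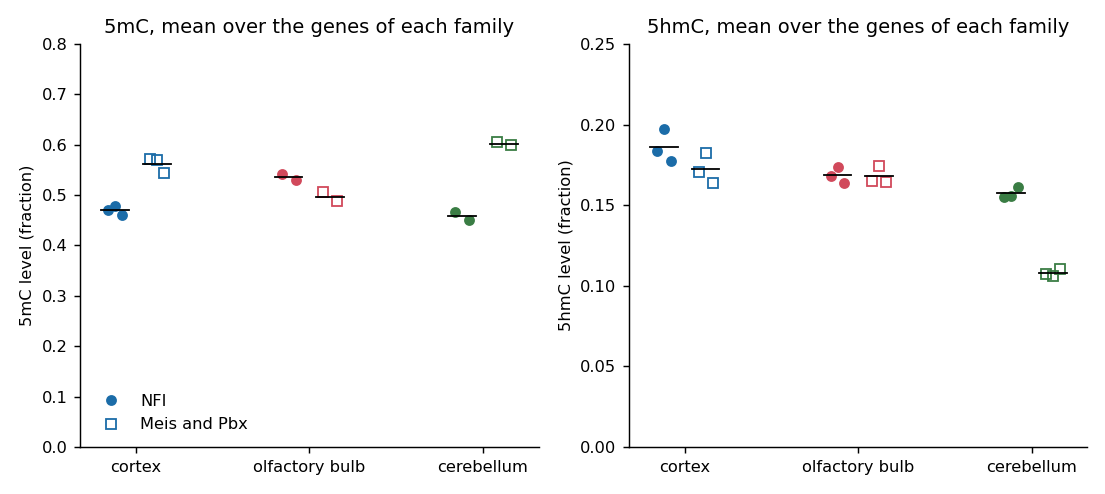
5mC (left) and 5hmC (right) level (fraction) per library in cortex, olfactory bulb and cerebellum, as the mean over the 4 NFI genes (filled circles) and over the 7 Meis and Pbx genes (open squares), with a bar at the tissue mean. In 5mC the NFI circles are the lower set in cortex and cerebellum and the upper set in olfactory bulb. In 5hmC the families are apart in cerebellum, near 0.158 against 0.108.

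Genes upstream or downstream of NFI factors were counted as a list, chosen from textbook roles with earlier results of these data known. Of 18 such genes, 4 were called higher in 5mC and 1 lower in olfactory bulb against cortex, 10 higher and 2 lower in cerebellum against cortex, and 5 higher and 3 lower in cerebellum against olfactory bulb. Over all genes, 26.4%, 55.1% and 18.0% were called higher and 0.867%, 4.27% and 7.69% lower in these comparisons, so the first and second of the higher counts lie near the background. Median differences were 0.0310, 0.0497 and 0.0155, beside 0.0299, 0.0444 and 0.0118 over all genes. Among 9 genes of glia and progenitors, 8 were higher in cerebellum than in cortex and none lower, beside 55.1% and 4.27% of all genes, led by Ezh2, a histone methyltransferase of progenitors (0.599 to 0.703, adjusted p in limma 5.48e-06), and Slc1a3, the glutamate transporter GLAST of astrocytes (0.628 to 0.728). The genes called lower there were Etv1, an ETS factor of granule neurons (0.662 to 0.568), and Cntn2, an adhesion molecule of axons (0.551 to 0.466). Against olfactory bulb, cerebellum was lower in Cntn2 (0.595 to 0.466), Nfatc4 (0.658 to 0.576) and Gabra6 (0.772 to 0.706), a GABA receptor subunit of granule neurons, and Slc1a3 and Bbx had the largest rises. In olfactory bulb against cortex the largest rises were in Gabra6 (0.698 to 0.772) and Hes5 (0.521 to 0.575), and the fall was in Etv1 (0.662 to 0.599). The values of Ezh2, Cntn2, Nfatc4, Gabra6 and Hes5 each come from 1 bin of 100 kb that is longer than the gene. They are levels of the region around the gene. With library medians subtracted, falls outnumbered rises in each comparison, with 0 higher and 4 lower, 3 higher and 8 lower, and 5 higher and 6 lower. Of all genes, 10.4% were then called higher and 35.4% lower in the second comparison. At most 3 of the 9 genes of glia and progenitors thus stayed higher in cerebellum than in cortex, against 8 before. The medians were those of bins, which moved more (0.22, 0.43 and 0.19 log2 odds) than the median gene (0.20, 0.29 and 0.08). Falls were thus favoured over all genes as well. Single libraries decided some of these counts. Out of 5 calls between olfactory bulb and cortex, 2 were left without cortex replicate 1, 1 without olfactory bulb replicate 1, 2 without olfactory bulb replicate 2 and 3 without cerebellum replicate 1 or cerebellum replicate 2. Out of 12 between cerebellum and cortex, 6 were left without cerebellum replicate 1, and out of 8 between cerebellum and olfactory bulb, 5 without olfactory bulb replicate 2 and 4 without cerebellum replicate 1.

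In 5hmC, at the 1 Mb bin of each gene's start, 17 of the 18 were lower in cerebellum than in cortex, as were 97.6% of all bins. Gabra6 was the one not called, with 0.171 in cortex and 0.177 in cerebellum (adjusted p = 0.390), and it was higher in cerebellum than in olfactory bulb by 0.0352 (adjusted p = 2.71e-07). Of the 18, 16 were lower in that last comparison, where 91.8% of all bins were. Between olfactory bulb and cortex 15 were lower (67.7% of all bins) and Etv1 was higher, with 0.175 in cortex and 0.208 in olfactory bulb.

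The genes most alike in 5mC were found by the Euclidean distance over the 7 oxBS-seq libraries after the mean of each library was subtracted, among the genes tested that share no bin with the member and have at least 2 bins. The nearest gene to Nfix was Nfic (distance 0.0666) and the nearest to Nfic was Nfix. Nfia was closest to Capzb (0.0334), Sh3bp5 and Gbgt1, and Nfib to Uhrf1bp1 (0.0189), Gbgt1 and Mga. The distance rests on level as well as on pattern, and Nfic and Nfix have the lowest levels of the family.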

How the data were processed

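Levels of 5mC (oxBS-seq) and 5hmC (TAB-seq) were compared over 3 mouse brain tissues, with samples grouped by their labels. The authors mapped reads to mm10 with Bismark and deposited a fraction per bin for each library, with 5mC in 100 kb bins and 5hmC in 1 Mb bins. The way in which the sites within a bin were averaged is not given in the sources used here. The study's methods give an average coverage per tissue and a minimum coverage for calling a site modified. The fractions carry no read counts, so the depth of a single bin is unknown here and precision was judged from the spread between libraries. The 6 RNA-seq samples were not analysed here.

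Bins at 0 or 1 in any library were left out. A gene's level was the unweighted mean of its kept bins, and its flanks were the bins within 500 kb of it. For tests across bins or genes, log2(level/(1 − level)) was fitted by limma (version 3.58.1, R 4.3.3), all 3 tissues of an assay together, and p-values were adjusted by Benjamini-Hochberg over the whole table (threshold 0.05). The script was tested on simulated data. Single values were compared with two-sided exact permutation tests on the absolute difference of means. All other steps used Python 3.11.15 with numpy 2.4.6, pandas 2.3.3, scipy 1.17.1 and matplotlib 3.10.9. Start windows came from RefSeq (GRCm38.p6).

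The members and lists were chosen with earlier results of these data known. The text gives every bin or the range of bins of the 4 genes, the bin with the largest difference per gene and pair in full, the 2 largest rises and falls of the list of 18 related genes, and the genes nearest in 5mC, of which some are not reported here. Alternatives were the fraction scale, all bins with levels limited to 0.001 to 0.999, library medians or means subtracted, a trended and robust fit, a replicate block, each library left out, 1 Mb bins for 5mC, weighting by bases of the gene, and flanks of 250 kb and 1 Mb.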

Additional observations from a re-analysis of the deposited data

How the results depend on the processing

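With 1 library left out, the differences of gene means kept their sign except between cerebellum and cortex for 5mC of Nfia and Nfib and for 5hmC of Nfix, and between olfactory bulb and cortex for 5hmC of Nfib, where the libraries overlapped in the first place. With all bins kept and levels limited, 7 of 16 bins were called between olfactory bulb and cortex instead of 12, where 23.1% of all bins were called instead of 39.7%. With library medians subtracted the counts of 5mC bins were 5 between olfactory bulb and cortex and 12 between cerebellum and cortex, those of genes were 1 of 4 and 4 of 4, and those of 5hmC bins turned from lower to higher in both comparisons with cerebellum, at 5 of 5. With 5mC averaged to 1 Mb, 4, 3 and 2 of 5 bins were called, in the order olfactory bulb against cortex, cerebellum against cortex and cerebellum against olfactory bulb, where fewer bins were tested. Leaving out 1 library gave 5 to 12, 5 to 8 and 5 to 10 of 16 bins for 5mC, and 2 to 4, 4 to 4 and 1 to 4 of 5 bins for 5hmC, in the same order. For genes it gave 1 to 3, 0 to 0 and 1 to 4 of 4. Where no share of all bins or genes stands beside such a count, a change over the whole genome cannot be told apart from one of the members. Without cerebellum replicate 2, rises outnumbered falls among the 5 bins called between cerebellum and cortex. Where no value above shows it, the cause of a change was not tested.

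With library means subtracted, 5hmC differences turned positive between cerebellum and cortex in Nfia (0.0208), Nfib (0.0333) and Nfic (0.0386), between cerebellum and olfactory bulb in Nfia (0.0403), Nfib (0.0192) and Nfic (0.0357), and between olfactory bulb and cortex in Nfib (0.0141), Nfic (0.00285) and Nfix (0.00660), and so did that of Nfix between cerebellum and cortex (0.0671), which follows from the lower mean of all bins. Weighting by bases of the gene turned the 5mC difference of Nfic between cerebellum and cortex to 0.00211. The small 5mC difference of Nfia between these tissues also changed sign with library means subtracted (-0.0462), with weighting and in bins wholly inside the gene. Weighting widened that of Nfix between cerebellum and olfactory bulb from -0.111 to -0.260. With flanks of 250 kb, the dip of Nfix differed by 0.0386 between cerebellum and cortex and 0.0178 between cerebellum and olfactory bulb. Of the 18 related genes, 4, 11 and 11 were called with library medians subtracted, mostly lower, a setting in which falls were favoured over all genes. Without olfactory bulb replicate 2, 5 were called between cerebellum and olfactory bulb, mostly lower.

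The replicate numbers of the labels are shared between tissues. Deviations of same-numbered libraries from their tissue means correlated from -0.0932 to 0.0290 in 5mC and -0.191 to 0.429 in 5hmC. With so few libraries these values do not decide whether the numbers pair the libraries. In 5mC the 2 deviations of olfactory bulb, and those of cerebellum, are mirror images of each other. The main fit did not pair the libraries. With a replicate block, 12, 7 and 11 of 16 bins were called for 5mC and 3, 4 and 3 of 5 for 5hmC. Of all 5mC bins, 29.2% were then called higher and 3.18% lower between olfactory bulb and cortex. Between cerebellum and cortex 68.2% were called higher and 6.26% lower. The numbers in the oxBS-seq library names differ from the labels (correlations -0.0301 to 0.0458), and a block on them gave 1 of 4 genes between cerebellum and cortex and 2 of 4 between cerebellum and olfactory bulb. Gene values from the mean of same-numbered differences kept their sign in both marks except for 5mC of Nfia between cerebellum and cortex. The comparison with Meis and Pbx genes under left-out libraries and the counts of genes were added after seeing the data. Bins of 1 Mb limit 5hmC to regions that hold many genes.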
